A study of Mus musculus with 12 samples.

Results

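The genes described here are those whose deposited log2 value in the vas deferens differed by 1 unit or more, that is 2-fold, between Hoxd-null mice with and without a mutant Hoxa copy. Matched by Gene ID, 2594 of 31669 genes met this rule, 1707 higher and 887 lower in the library with the mutant Hoxa copy. Of these, 1362 higher genes (8% of the 17035 that passed a filter on low values) and 702 lower genes (4.12%) are called higher and lower members below, and 345 and 185 did not pass. The filter left out genes whose highest male library was read as under 20 normalised reads, and kept genes whose level could not be read. The difference that chose the members is given as a description only. Just inside the limit lay Snai2, Ube2c and Clec4a2, up to 1.0024, and Ndufc1, Tmem25 and Ptges, down to -1.0020. Just outside it lay Spag5, Sobp and Lilra5, from 0.9993, and Krt19, Hist1h2al and Slc45a3, from -0.9952.

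The samples were reproductive tracts of mice on a CD1/129 background aged 3 to 7 months, with RNA of 3 animals pooled into 1 library for each tissue and genotype. The Hoxd-null vas deferens was Hoxd9,10,11-/-, and the compound Hoxd-null vas deferens was Hoxa9,10,11+/-d9,10,11-/-, so both libraries of the main comparison lack both normal copies of the Hoxd block. For context, WT, Hoxa-null (Hoxa9,10,11-/-) and compound Hoxa-null (Hoxa9,10,11-/-d9,10,11+/-) vasa deferentia, the WT caudal epididymis, and uteri of the compound Hoxd-null and Hoxd-null genotypes collected in diestrus were used. The mutations are carried in all cells, and pooled RNA gives no spread between animals. With 1 library a side there was no replicate check, and no error or p-value can be given.

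The compound Hoxd-null vas deferens was sequenced in run 136, lane 7, and the Hoxd-null, Hoxa-null and compound Hoxa-null ones in run 134, lane 2. The run and the mutant Hoxa copy therefore cannot be told apart in the difference that chose the members. One read was worth 1.29 normalised reads in the compound Hoxd-null library and 0.978 in the Hoxd-null one, a relative depth of 0.757. Total read numbers are unknown. A library with no or very few reads stands at a floor of 1 normalised read, and differences from such a library understate the contrast. Of smooth muscle and epithelial genes used as markers of the duct, Myh11, Acta2, Des, Krt8 and Epcam passed the low-value filter. No library was recognised as standing at the floor for them, but their levels could not be read.

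Hox genes encode transcription factors that give position to tissues along the body axis. The Hox9 to Hox11 genes of the Hoxa and Hoxd clusters act in the ducts of the reproductive tract, and loss of posterior Hox genes is known to turn a segment toward the character of a more anterior one. In the male the vas deferens, a thick muscular tube, follows the tail of the epididymis, whose epithelium secretes sperm-coating proteins, defensins and protease inhibitors and acidifies the lumen.

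The bases just upstream of 4 members are shown because these genes stand for the groups described next: a secreted epididymal enzyme, a beta-defensin and a pair of Wnt pathway inhibitors that differed in opposite directions. Each run holds the 250 bases before the annotated start, 5′ to 3′ on the gene's strand, from RefSeq (GRCm38.p6). Capitals mark TTTAT, a core read by posterior Hox proteins, and AGAACA, a half-site of the androgen receptor, on either strand (ATAAA and TGTTCT). Gpx5 lies on the minus strand at chr13:21292687-21292936, Defb26 on the minus strand at chr2:152511737-152511986, Axin2 on the plus strand at chr11:108920099-108920348 and Wif1 on the plus strand at chr10:121033754-121034003.
Gpx5: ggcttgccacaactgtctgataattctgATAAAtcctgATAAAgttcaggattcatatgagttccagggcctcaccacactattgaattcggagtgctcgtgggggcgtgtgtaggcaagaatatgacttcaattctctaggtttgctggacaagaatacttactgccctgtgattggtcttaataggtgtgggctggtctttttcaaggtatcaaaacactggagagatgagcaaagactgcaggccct
Defb26: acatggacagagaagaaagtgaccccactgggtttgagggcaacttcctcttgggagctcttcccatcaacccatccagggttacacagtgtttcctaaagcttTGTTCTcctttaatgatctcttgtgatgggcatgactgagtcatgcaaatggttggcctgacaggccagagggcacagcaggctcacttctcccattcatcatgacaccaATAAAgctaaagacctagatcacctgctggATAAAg
Axin2: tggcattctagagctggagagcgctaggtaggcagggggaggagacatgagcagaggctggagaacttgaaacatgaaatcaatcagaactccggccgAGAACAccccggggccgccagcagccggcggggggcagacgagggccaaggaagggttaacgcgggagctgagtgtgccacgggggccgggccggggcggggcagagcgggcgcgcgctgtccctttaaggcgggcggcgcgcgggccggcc
Wif1: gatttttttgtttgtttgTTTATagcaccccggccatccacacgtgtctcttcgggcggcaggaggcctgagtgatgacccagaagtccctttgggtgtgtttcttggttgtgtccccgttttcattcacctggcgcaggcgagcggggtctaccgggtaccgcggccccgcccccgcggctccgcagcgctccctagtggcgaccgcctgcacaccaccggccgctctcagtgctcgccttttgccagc
The Gpx5 run holds TTTAT at 2 places, Defb26 holds TTTAT at 2 and AGAACA at 1, Axin2 holds AGAACA at 1, and Wif1 holds TTTAT at 1. Such short words are common: TTTAT was found in 37.3% and AGAACA in 16.1% of all 32851 promoter windows of that length. A match describes the letters and is not evidence of a bound site.

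The targeted genes were looked at first as a check of the labels. Unless another reference is named, values given across the 4 mutants are log2 differences from the WT vas deferens, in the order Hoxd-null, compound Hoxd-null, Hoxa-null, compound Hoxa-null. Hoxa11 (Gene ID 15396, mm9 chromosome 6, start 52192105) gave -0.16, -0.83, -2.29 and -3.20 across the 4 mutants. The library with 1 mutant Hoxa copy thus lay between those with none and those with 2, and its difference from the Hoxd-null library, -0.67, was under the limit. Hoxa10 differed by -0.06 and Hoxa9 by 1.22 between the same libraries, and Hoxa9 was not lower than WT in either Hoxa-null library, at 0.62 and 0.34. Hoxd11 (Gene ID 15431, chromosome 2, start 74520450) was at -2.47 without and -1.17 with the mutant Hoxa copy, a difference of 1.30, although both carry 2 mutant Hoxd copies. Hoxd9 was at -1.28 and -1.20 and Hoxd10 at -0.27 and 0.49. Reads from an untouched part of a mutant gene still count, so these values do not measure the protein.

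Among the other Hox genes the Hoxc cluster held the most members. Of 7 measured Hoxc genes, 4 were higher members and none was lower, beside 8% and 4.12% of all genes. The median difference was 1.02 against 0 over all genes. Hoxc10 (Gene ID 209448, chromosome 15, start 102797296) gave -0.42, 1.51, 1.62 and 1.65 across the 4 mutants. Hoxc8 gave 0.40, 2.05, 1.29 and 1.90 in the same order. Both were above WT by more than 1 unit in every vas deferens with a mutant Hoxa copy and not in the Hoxd-null one. Hoxc9 gave 1.005, 2.35, 1.73 and 1.90, so it was already higher than WT without a mutant Hoxa copy. In the uterus of the same genotypes Hoxc8, Hoxc9 and Hoxc10 were higher too, by 2.04, 1.68 and 1.76.

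On the anterior side of the targeted Hoxa block, Hoxa4 at 1.40 and Hoxa7 at 1.05 were higher members, and Hoxa6 was at -0.98. None of 8 Hoxb genes passed the limit, with a range from -0.33 for Hoxb2 to 0.32 for Hoxb4. Hoxa13 and Hoxd13, the most posterior genes of their clusters, differed by 0.66 and 0.14. Both were lower than WT in the Hoxa-null library, at -3.55 and -1.68, where the compound Hoxd-null values were 0.31 and 0.29.

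To see whether the change followed full loss of the Hoxa block, each member was looked up in libraries that the rule did not use. The Hoxa-null and compound Hoxa-null comparisons share the WT library, so they are not independent of each other. The WT library was in lane 1 of run 134 and both Hoxa-null libraries, like the Hoxd-null one, in lane 2. Of the 1362 higher members, 482 (35.4%) were also higher than WT by 1 unit or more in both Hoxa-null libraries, where 9.22% of all genes were. Another 88 (6.46%) were lower in both, where 5.82% of all genes were, and 792 did neither. In the Hoxa-null library alone 530 higher members (38.9%) were higher, where 11% of all genes were, and 157 (11.5%) lower, where 8.46% were. In the compound Hoxa-null library alone 679 (49.9%) were higher, where 14.1% of all genes were, and 125 (9.18%) lower, where 8.43% were. The compound Hoxa-null library also lay above the Hoxa-null one for 337 higher members (24.7%), beside 7.6% of all genes, where 72 (5.29%) lay below it, beside 2.04%. Of the lower members 46 (6.55%) lay below it, beside 2.04%, and 91 (12.96%) above it, beside 7.6%. Seen from the other side, the 482 were 30.7% of the 1570 genes higher in both Hoxa-null libraries. The filter looks at the highest male library, so a gene with few reads in both libraries of the rule can pass through a high Hoxa-null one. Without the filter 509 of 1707 higher genes (29.8%) and 127 of 887 lower genes (14.3%) followed. The share of all genes without the filter is not given here.

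A smaller share of the lower members followed. Of 702, 82 (11.7%) were also lower in both Hoxa-null libraries, against 5.82% of all genes, and 135 (19.2%) were higher in both, against 9.22%. The 82 were 8.27% of the 992 genes lower in both Hoxa-null libraries. The shares of lower members depended on the gene class, since many of them are pseudogenes. Without pseudogenes, 79 of 471 (16.8%) were lower in both, against 5.96% of such genes, and 73 (15.5%) were higher, against 8.75%. Among RefSeq protein-coding genes, 73 of 370 (19.7%) were lower in both, against 5.99%, and 51 (13.8%) were higher, against 8.18%. The higher members' share kept near 35.4% in those classes, at 464 of 1308 (35.5%) and 396 of 1149 (34.5%). Both classes were chosen after the values were seen. The median Hoxa-null minus WT difference was 0.56 for higher and 0.37 for lower members, and 0.02 for all genes, so both sets lay on the higher side.

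**Figure D1:**
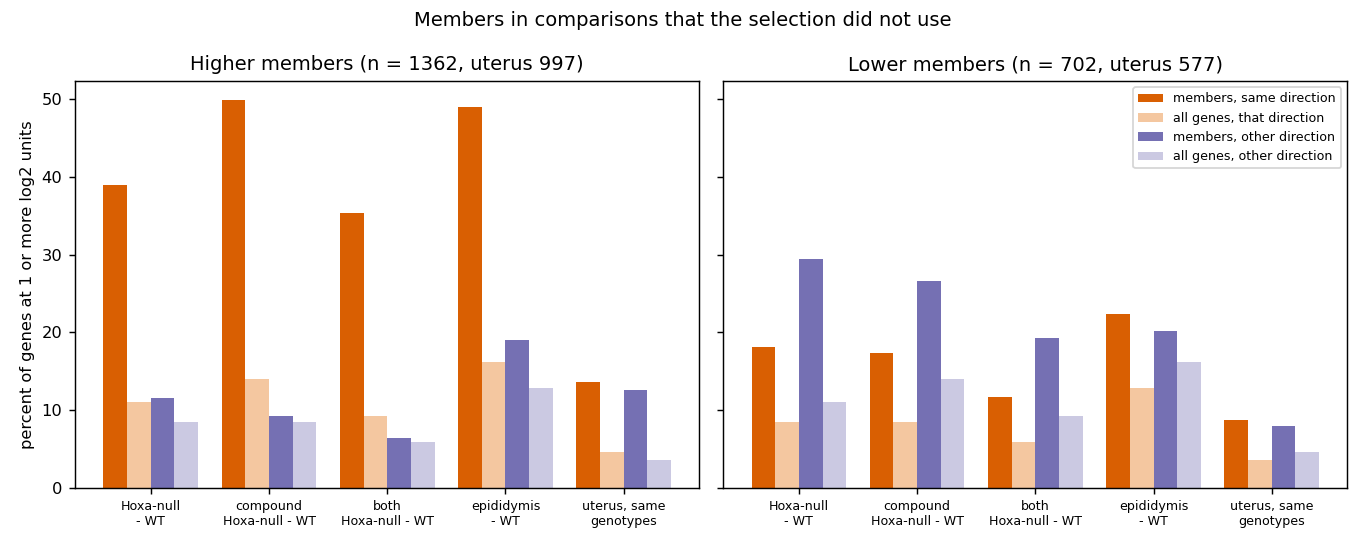
Percent of higher members (left) and lower members (right) at 1 or more log2 units in the same or the other direction (dark bars), beside all genes that passed the filter (pale bars), in 5 comparisons. In both Hoxa-null libraries against WT, 35.4% of higher members were higher beside 9.22% of all genes, and 11.7% of lower members were lower beside 5.82%.

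The 482 higher members that followed had median differences from WT of 0, 1.72, 2.25 and 2.74 across the 4 mutants. For 322 of the 482 (66.8%) the compound Hoxd-null value lay between the Hoxd-null and both Hoxa-null values, and for 68 (14.1%) it lay beyond both Hoxa-null values. The 82 lower members that followed had medians of -0.10, -1.61, -2.05 and -2.24, with 58 (70.7%) between. The rule fixes the gap between the Hoxd-null and compound Hoxd-null medians, and following fixes that the Hoxa-null medians lie beyond 1 unit. The order of these medians and the shares between are therefore largely set by how the genes were chosen, and no grading is read from them.

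Next come the 12 higher members that went furthest with both Hoxa-null libraries. Pde11a, a phosphodiesterase (Gene ID 241489, chromosome 2, start 75829189), gave -0.42, 1.05, 7.10 and 6.87 across the 4 mutants. Chga, which encodes a secretory-granule protein of endocrine cells, had 1 normalised read in WT (the floor), 4.89, 54.3, 147 and 81.4 normalised reads across the 4 mutants and 221 in the epididymis. Chga was thus low in both vasa deferentia without a mutant Hoxa copy and high in the other 4 libraries. Wfdc12, a protease inhibitor of the whey acidic protein family, gave 0.76, 3.16, 6.04 and 5.49 across them. Dbh, the enzyme that makes noradrenaline, gave 1.06, 3.68, 4.90 and 5.52. Rnase9, Mep1a, Pipox, Spink6, Ldhal6b, Cacna1b, Ddx25 and Clgn completed the 12, with member differences from 1.37 for Clgn to 2.99 for Cacna1b. The Ddx25 difference rests on 5 reads in the compound Hoxd-null library against the floor in the Hoxd-null one, so no direction is read from it. Read numbers could not be recovered for Clgn and Ldhal6b and may be small. The Clgn difference equals that of Pbsn below, which is 2 reads against the floor.

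Among lower members that followed, Wif1, a secreted Wnt inhibitor (Gene ID 24117, chromosome 10, start 120471286), gave 0.26, -0.98, -5.37 and -8.58 across the 4 mutants. The order of these values is largely set by how the genes were chosen, so no grading by mutant Hoxa copies is read from it. Grp, gastrin-releasing peptide, gave -0.40, -1.86, -3.44 and -3.69, and P4ha3, a collagen prolyl hydroxylase, gave -0.01, -1.81, -3.36 and -4.25. The other 9 of the 12 lower members that went furthest were Nsg2, Pcdh10, Mug1, Pax5, Pilra, Fam151a, Resp18, Trem3 and Fam5b. Their member differences lay between -1.98 and -1.18, and the read numbers of Pax5 could not be recovered. Gdf5, a bone morphogenetic ligand of joints (Gene ID 14563, chromosome 2, start 155766763), is not among the 12 but followed too, with -0.44, -1.61, -2.54 and -3.33.

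**Figure D2:**
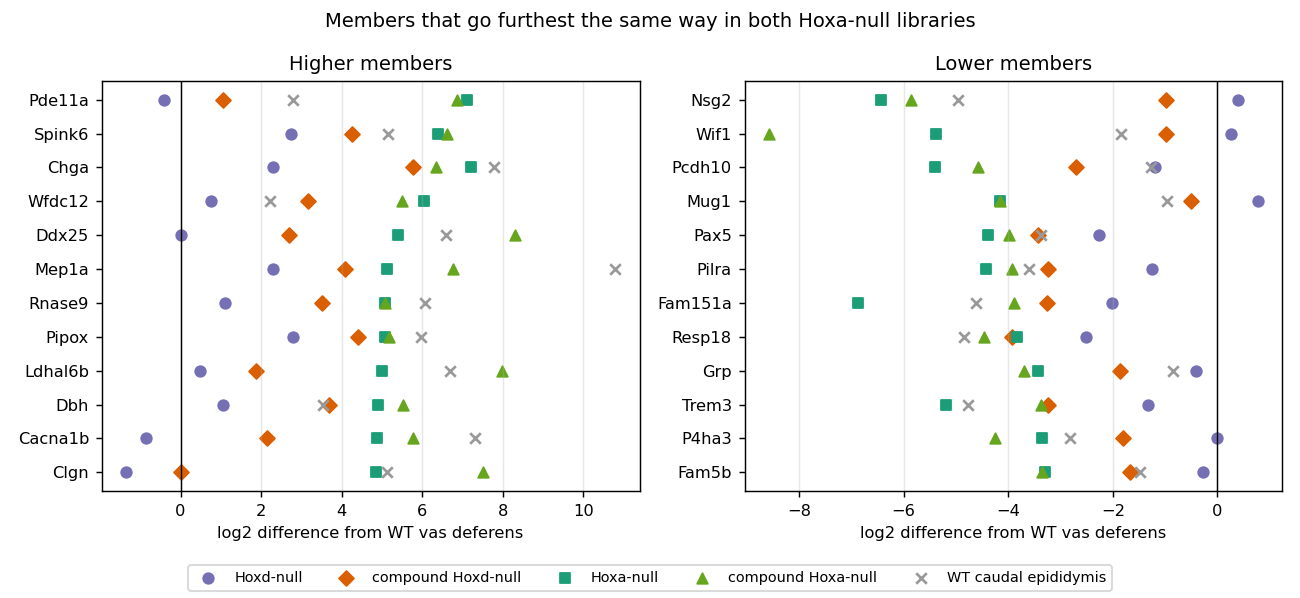
Log2 difference from the WT vas deferens (x axis) for the 12 higher (left) and 12 lower (right) members that went furthest with both Hoxa-null libraries, 1 point per library. The Wif1 points lie at 0.26 for the Hoxd-null, -0.98 for the compound Hoxd-null and -5.37 for the Hoxa-null library. The choice of genes largely sets the order of the points. The Ddx25 point of the compound Hoxd-null library rests on 5 reads.

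Members that went the other way were also named. Prm1 and Prm2, which package DNA in sperm, were higher members at 1.67 and 1.79, but stood at -4.35 and -5.36 in the Hoxa-null library relative to WT. Kcnv2 and Grid1, at 1.004 and 1.12, stood at -7.71 and -7.05 there. Saa3, an acute-phase protein, and Pbsn, the prostate protein probasin, were at 2.15 and 1.37. Both were below WT in the Hoxd-null library too, at -4.39 and -9.00. The Pbsn difference rests on 2 reads in the compound Hoxd-null library against the floor in the Hoxd-null one, so no direction is read from it. Among lower members, Adam3, a sperm surface protein, at -1.86, and Apoc4, an apolipoprotein, at -1.55, stood at 4.12 and 3.77 in the Hoxa-null library.

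Members were also sorted by where the WT library lay. Over all genes 7.79% were higher and 5.43% lower than WT in the compound Hoxd-null library, and 3.46% and 4.94% in the Hoxd-null one. For 603 of the 1362 higher members (44.3%) the compound Hoxd-null library was above WT by 1 unit or more while the Hoxd-null one was within 1 unit, and 297 of these (49.3%) followed. For 266 (19.5%) it was the Hoxd-null library that lay below WT while the compound one was within 1 unit of it, and 48 of these followed. Among lower members the corresponding numbers were 337, of which 49 followed, and 130, of which 3 followed.

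Adipocyte genes were mostly higher members. Of 13 measured, 11 were higher members and none was lower, beside 8% and 4.12% of all genes, with a median of 2.01. All 11 were also higher than WT in both Hoxa-null libraries. Pck1, an enzyme of glyceride and glucose synthesis (Gene ID 18534, chromosome 2, start 172978574), gave -0.56, 2.75, 2.52 and 3.31 across the 4 mutants. Pparg, the master regulator of fat cells (Gene ID 19016, chromosome 6, start 115310969), gave -0.14, 3.06, 1.75 and 2.53. Adipoq, the fat hormone adiponectin, gave 0.05, 2.28, 2.64 and 2.65. All 3 were near WT in the Hoxd-null library alone.

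Plin1, Cidec, Lpl, Fabp4, Cfd, Retn, Lep and Thrsp made up the 11, with differences between 1.69 for Fabp4 and 2.62 for Plin1. The list's median in the WT epididymis relative to the WT vas deferens was -1.28, with Cidec at -2.64 and Pck1 at -3.01. In the uterus of the same genotypes 8 of these 11 genes were lower by 1 unit or more and none higher, with a median of -1.92. They ranged from -4.96 for Lep to -1.15 for Pck1, while Thrsp was at -0.65, Lpl at 0.02 and Pparg at 0.69. Fat lies around the duct in the animal, and whether these values come from more fat cells in the dissected tissue or from more RNA per cell cannot be told apart in bulk RNA.

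Secreted epididymal genes were the second group. Of 23 measured beta-defensins, small antimicrobial peptides of the epididymal epithelium, 9 were higher members and 1, Defb23, was lower. Over all genes 8% were higher and 4.12% lower members. Of the 9, 8 followed, but 19 of all 23 were higher than WT in both Hoxa-null libraries, so following is not particular to the members. Defb26 (Gene ID 654457, chromosome 2, start 152333534) gave -0.33, 3.66, 2.02 and 1.90 across the 4 mutants and 6.12 in the epididymis. The list's medians were 0.77 for the member difference, and 2.57 for the Hoxa-null, 2.37 for the compound Hoxa-null and 4.24 for the epididymis library against WT. Members of this family are similar in sequence and can share reads, so single defensins are uncertain.

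Of 29 Wfdc, Spink and serpin protease inhibitors, 9 were higher members and 3, Slpi, Spink8 and Spink12, were lower. The counts of this paragraph are read beside the 8% of all genes that were higher and the 4.12% that were lower. Of the 9, 8 followed, where 16 of all 29 were higher than WT in both Hoxa-null libraries. Of 17 sperm-coating genes 5 were higher and 2 lower, with a median of 0.29. Of the 5, 3 followed, where 8 of all 17 were higher than WT in both Hoxa-null libraries. The epididymal markers Lcn5, Lcn8, Crisp1 and Rnase10 were not members, at -0.31, 0.96, -0.41 and 0.006. Gpx5, a glutathione peroxidase secreted onto sperm (Gene ID 14780, chromosome 13, start 21378302), gave -0.58, 3.52, 5.02 and 4.32 across the 4 mutants and 4.61 in the epididymis. Adam7, a membrane protein shed onto sperm, gave 0.50, 2.47, 3.19, 3.23 and 6.03. Ovch2, a protease, was at -1.97. That value rests on 4 reads in the Hoxd-null library against the floor in the compound Hoxd-null one, so no direction is read from it.

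Of 11 genes of clear cells, which pump protons into the epididymal lumen, 6 were higher members and none was lower. Over all genes 8% were higher and 4.12% lower. Of the 6 higher members, 5 followed. Of all 11, 7 were higher than WT in both Hoxa-null libraries. Atp6v1b1, a proton pump subunit (Gene ID 110935, chromosome 6, start 83693011), gave 0.22, 1.75, 2.95 and 3.51 across the 4 mutants and 4.43 in the epididymis. Foxi1, the transcription factor that specifies these cells, gave 1.04, 2.06, 3.11 and 3.66 in the vas deferens libraries. Car4, a membrane carbonic anhydrase (Gene ID 12351, chromosome 11, start 84771345), had the largest difference of the list, 4.83, and was at -3.30 without and 1.53 with the mutant Hoxa copy.

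The epididymis was related to the members at large. Of higher members, 668 (49.0%) were higher in the epididymis than in the WT vas deferens, where 16.2% of all genes were, and 259 (19.0%) were lower. For the followers the share was 363 of 482 (75.3%), close to the 1159 of 1570 (73.8%) among all genes higher in both Hoxa-null libraries. Of lower members, 157 (22.4%) were lower in the epididymis, where 12.8% of all genes were, and 142 (20.2%) were higher. The epididymis, Hoxa-null and compound Hoxa-null comparisons all use the same WT library, and the epididymis was sequenced in the same run as the compound Hoxd-null library.

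Meiosis and spermatid genes were often higher members. Of 28 measured, 16 were higher members and 1, Zpbp, was lower, beside 8% and 4.12% of all genes, with a median of 1.26. Of the 16, 3 followed, where 6 of all 28 were higher and 6 lower than WT in both Hoxa-null libraries. The list's median relative to WT was -0.84, 0.45, -0.42 and 1.65 across the 4 mutants and 4.31 in the epididymis. Spem1, Spata3 and Tnp2 were at 4.21, 3.72 and 2.32 as member differences. These genes are made by germ cells, which the duct holds only as luminal content, and the amount of that content in each pool was not tested.

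**Figure D3:**
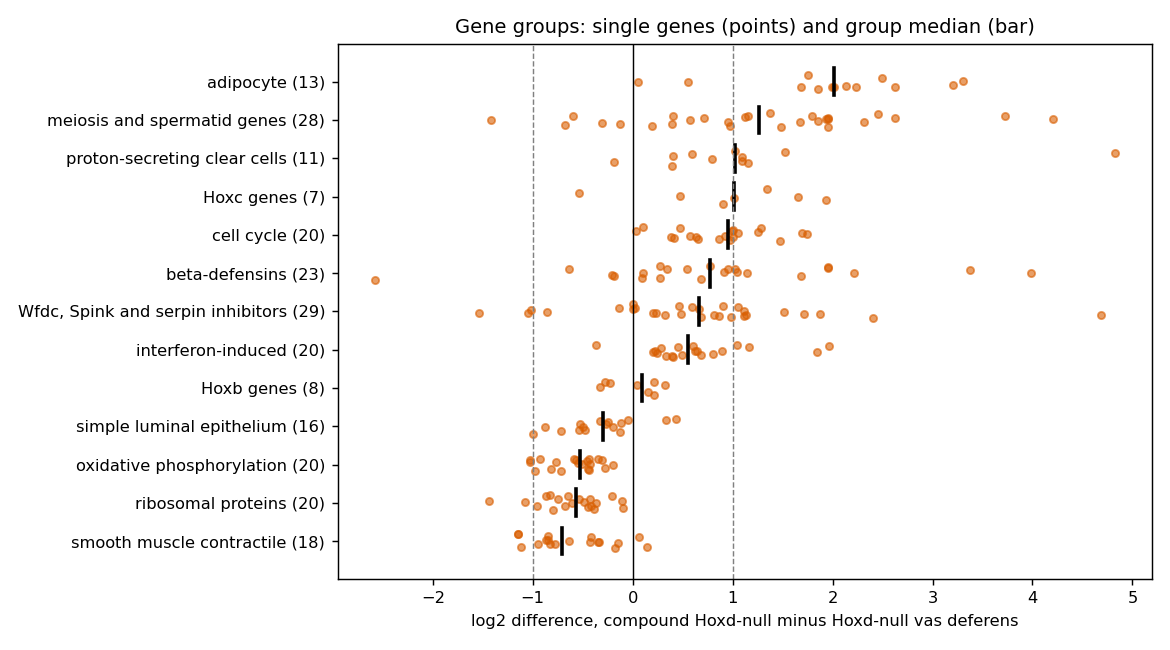
Log2 difference, compound Hoxd-null minus Hoxd-null vas deferens (x axis), of the genes of 13 lists (points, measured genes in brackets) with the list median (bar) and the limit of 1 unit (dashed). The adipocyte median of 2.01 is the furthest to the right of those drawn and the smooth muscle median of -0.71 the furthest to the left.

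Of 30 Wnt pathway genes 3 were higher and 2 lower members, near the 8% and 4.12% of all genes that were. Axin2, a Wnt inhibitor that Wnt signalling itself induces (Gene ID 12006, chromosome 11, start 108781680), gave 0.17, 1.22, 2.53 and 2.49 across the 4 mutants. Notum, a secreted Wnt inhibitor, was at 1.99 as a member difference, mostly through a value of -1.64 in the Hoxd-null library. Wif1 and Wnt2b, a Wnt ligand, were lower at -1.24 and -1.15.

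Of 23 genes of the bone morphogenetic protein family none was higher and 2 were lower, Gdf5 at -1.17 and Id3, a target of this pathway, at -1.05. The lists of this paragraph are read beside the 8% of all genes that were higher and the 4.12% that were lower. Of 21 fibroblast growth factor and hedgehog genes only Ihh, a hedgehog ligand, was a member. It gave -1.16, 0.65, 3.70 and 3.82 across the 4 mutants. In the retinoic acid list Rbp4 and Crabp2, carriers of retinol and retinoic acid, were higher by 2.16 and 1.02, and both followed.

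Of 18 smooth muscle contractile genes of the duct wall, 3 were lower members, where 4.12% of all genes were, Actg2 at -1.15, Tagln at -1.15 and Myh11 at -1.11, none was higher, and the median was -0.71. The median relative to WT was 0.19, -0.28, -1.03 and -1.21 across the 4 mutants. None of 16 luminal epithelial genes and none of 13 endothelial genes was a member, where 8% of all genes were higher and 4.12% lower. Their medians were -0.30 and 0.28, with the luminal gene Krt19 just outside the limit at -0.999. Cftr, an epithelial marker outside these 2 lists, was a lower member at -1.05. Of 18 genes of epithelial ion and water transport 3 were higher and 3 lower. Of 20 cell cycle genes 8 were higher, among them Plk1 at 1.74 and Mki67 at 1.48, with a median of 0.95, and 1 of the 8 followed. The list's median was -0.52 without and 0.23 with the mutant Hoxa copy.

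The immune lists are read beside the 8% of all genes that were higher and the 4.12% that were lower. Of 20 interferon-induced genes 4 were higher and none lower, led by Cxcl9 at 1.96, and none followed. Of 23 chemokine genes 6 were higher, of 14 macrophage genes 1, and of 9 genes of antigen presentation by MHC class II none. Of 10 genes of B and plasma cells 2 were lower, Fcer2a at -1.43 and Pax5 at -1.18, and none was higher. Read numbers could not be recovered for Pax5 and may be small. Of 6 blood genes Ppbp, a platelet chemokine, was higher at 1.40, and the globin genes Hbb-b1 and Hba-a1 were lower at -1.55 and -1.14. Of 14 nerve and glia genes 5 were higher, with Snap25, a synaptic fusion protein, at 6.19 and Dbh at 2.62. Of 22 skeletal muscle genes 4 were higher and 1 lower, and the list's median was -1.71 without and -1.59 with the mutant Hoxa copy.

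Several of the largest differences were in genes best known from the lung. They were grouped after their values were seen, so their count is a description. Sftpc, surfactant protein C (Gene ID 20389, chromosome 14, start 70920747), had 273 normalised reads in the compound Hoxd-null library, 1.84 in the Hoxa-null one and stood at the floor of 1 in the other 4 male libraries. Scgb1a1, the secretoglobin of airway club cells, had 422 against at most 2.99 elsewhere. Sftpa1 had 165 and Sftpb 87.6, with 27.0 and 4.05 in the epididymis and the floor in the other 4 libraries. The compound Hoxd-null library alone among the vasa deferentia held these 4 genes above 3 normalised reads.

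In the lung list 8 of 13 measured genes were higher members, with Sftpd at 2.30 and Nkx2-1, a lung and thyroid transcription factor, at 2.14. Ager, Napsa, Abca3 and Hopx, at 0.93, 0.77, -0.69 and -0.53, were not. None of the 8 followed both Hoxa-null libraries. In the uterus Sftpc and Scgb1a1 had 3 and 2 reads in the Hoxd-null library and stood at the floor in the compound Hoxd-null one, so no direction is read there. The source of these reads was not tested.

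**Figure D4:**
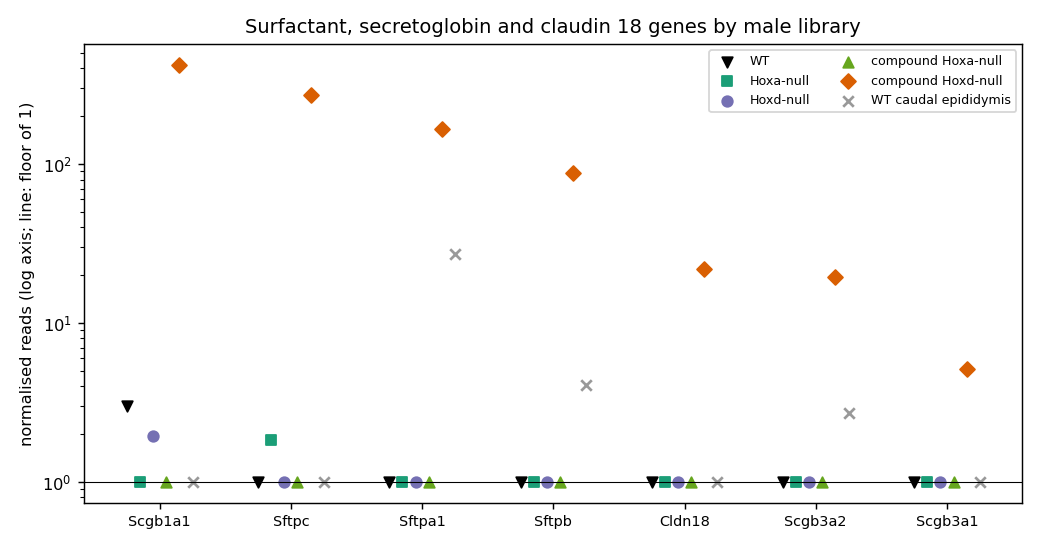
Normalised reads (log axis, floor of 1 as a line) of 7 surfactant, secretoglobin and claudin genes in the 6 male libraries. The compound Hoxd-null library is highest for each, from 422 for Scgb1a1 to 5.17 for Scgb3a1, and the epididymis library is second for Sftpa1 at 27.0.

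The 15 largest higher differences also held Serpina3b at 5.56, Mc2r at 5.66, Wfdc13 at 4.69, Rbm42 at 4.73, Pon1 at 4.65, Gpx6 at 4.37 and Treh at 4.36. Mettl7a2 was higher by 7.30, and the readthrough transcript Mettl7a2-Higd1c, which starts at the same base (chromosome 15, start 100183631), was lower by 7.45. Mettl7a2 stood at the floor in the Hoxa-null and Hoxd-null libraries and the readthrough at the floor in the compound Hoxa-null and compound Hoxd-null ones. Because these gene models overlap, reads can be assigned to either, and neither difference is read as a change.

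Apart from the readthrough, the largest lower difference was that of Prap1, -5.86. Prap1, a secreted epithelial protein (Gene ID 22264, chromosome 7, start 147279302), gave 0.87, -4.99, 1.05 and 0.60 across the 4 mutants. It was low only in the compound Hoxd-null library among the vasa deferentia. Glycam1, a mucin-like ligand of selectins, had 30.3 normalised reads in the Hoxd-null library and 1.29 in the compound Hoxd-null one, and stood at the floor in the other 4, so the Hoxd-null library is the one that stands apart. Padi4, Gcnt3, Xkr6, Sprr2a1, Calb1, Sult1d1 and Cml2 came next in size, from -4.15 to -2.98. Xist, the RNA that silences an X chromosome in female cells, was at -2.16, and lay at 0.76 without and -1.40 with the mutant Hoxa copy.

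Lower members differed from higher ones in kind. By symbol, description or RefSeq biotype, 231 of 702 lower members (32.9%) were pseudogenes, beside 54 of 1362 higher members (3.96%) and 648 of all 17035 genes (3.80%). Of the 187 lower members that were lowest by 1 unit or more in the compound Hoxd-null among all 6 male libraries, 75 (40.1%) were pseudogenes. The median of all 648 was -0.54 for the member difference, and relative to WT it was 0.29, -0.30, 0.65 and 0.51 across the 4 mutants and 0.16 in the epididymis. Many pseudogenes resemble ribosomal protein genes and can take their reads. The 20 ribosomal protein genes had a median of -0.57, with Rps29 at -1.08, and 20 oxidative phosphorylation genes one of -0.53, with Ndufa4 and Cox5a at -1.03. These shifts were in the library of the other run, and whether they reflect the run or the genotype cannot be told apart. Without pseudogenes 471 lower members remained.

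**Figure D5:**
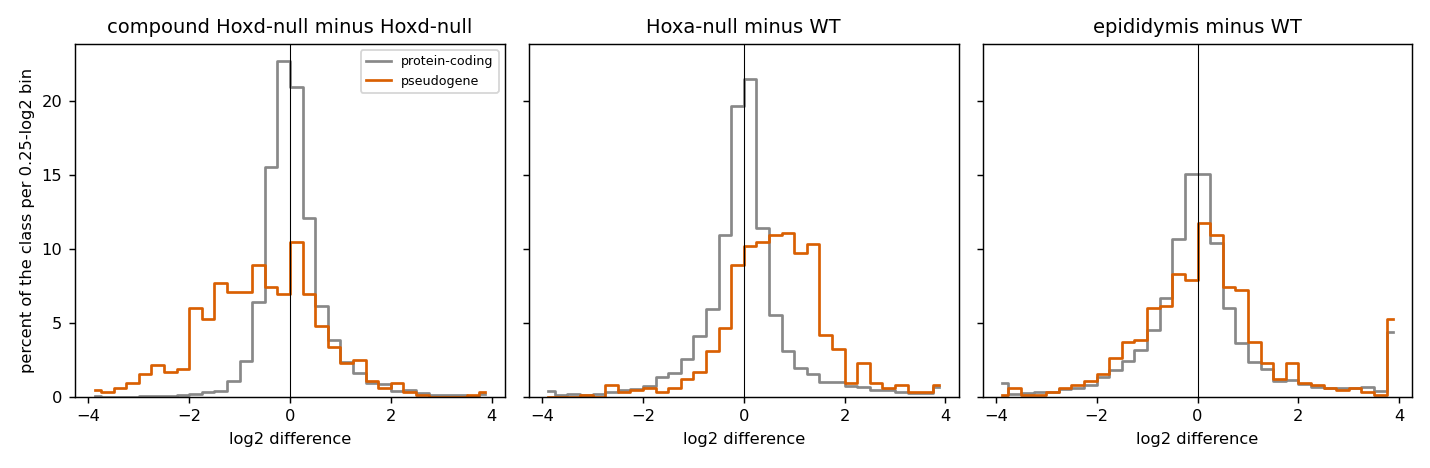
Percent of protein-coding genes and pseudogenes (y axis) per bin of 0.25 log2 units of the difference (x axis) in 3 comparisons, the end bins holding all values beyond 4 units. Pseudogenes lie to the left for the compound Hoxd-null minus Hoxd-null difference (median -0.54) and to the right for Hoxa-null minus WT (median 0.65).

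The uterus of the same genotypes, sequenced in run 134, lane 2 for both libraries, held members in both directions at similar shares. Of 997 higher members measured in both sexes, 136 (13.6%) were higher in the uterus, where 4.6% of all genes were, and 125 (12.5%) were lower, where 3.52% of all genes were. Of 577 lower members 50 (8.67%) were lower and 46 (7.97%) higher. The higher members that went furthest the same way were Asb11, Klk1, Fcamr, Bhmt, Hsd17b2, an enzyme that inactivates sex steroids, and Rbm42, at 4.04 to 3.32 in the uterus. The lower ones were Cntn3, Mug1, Olah, Hsd11b2, an enzyme that inactivates glucocorticoids, Spock3 and Cml2, at -3.45 to -2.75.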

How the data were processed

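The authors deposited log2 values per gene in 12 tables, per the file headers, 6 of them male. Per the submitters' processing notes TopHat and mm9 were used, with counting tool, annotation and scaling not given in the sources used here. RNA was extracted with an RNeasy Mini kit and libraries made with TruSeq reagents, per the labels' protocols. Each gene's values are centred at a median of 0 over the 6 libraries of a sex, so levels are lost and only differences within a sex were used. Normalised reads were recovered where a library stood at the floor of 1, from the spacing of low values. This spacing gave each library's relative depth. Many values are fractions of reads, so the filter on low values removes only genes read as low and is lenient. The recovery and the counts were tested on simulated data.

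Genes at 1 or more log2 units were counted with Python 3.11.15, numpy 2.4.6 and pandas 2.3.3. The members and the 49 gene lists, and 1 list added later, were chosen with earlier results of these data known. Named were the 15 largest in each direction, the 12 following and 6 opposing both Hoxa-null libraries, 6 shared with the uterus, all Hox genes, up to 4 per list, and 3 on each side of each limit. Further list members were named where a count is given, after their values were seen. Predicted genes were counted without being named. A few results for single genes of the lists are not reported here. Alternatives were other filters, limits and references, and gene classes.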

Additional observations from a re-analysis of the deposited data

Results flagged for a closer look

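For 3 of the genes with the largest differences that also passed the filter in the female libraries, the vas deferens and the uterus of the same genotypes went opposite ways by 1 log2 unit or more, and the difference between the tissues was not tested, with 1 library a side. Sftpc was at 8.09 in the vas deferens and -1.85 in the uterus, 9.94 apart, but the uterus value rests on 3 reads in the Hoxd-null library against the floor in the compound Hoxd-null one, so no opposite change is read from it. Scgb1a1, Sftpb, Mc2r and Serpina3b, at 7.75, 6.45, 5.66 and 5.56 in the vas deferens and -1.26, -1.36, -1.85 and -1.13 in the uterus, did not pass the female filter and rest on as few reads. Prap1 was at -5.86 and 1.96, a vas deferens minus uterus value of -7.81. Sprr2a1 was at -3.28 and 1.65, a value of -4.92, and its family members share sequence.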

How the results depend on the processing

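Of 52 repeats of the 6 counts (member genes, those following both Hoxa-null libraries, and those shared with the uterus, each higher and lower), 34 came within 1.5 times and 18 did not. Without a filter, 231 higher and 91 lower genes were shared with the uterus, and 509 higher (29.8%) and 127 lower genes (14.3%) followed. At a limit of 2 log2 units, 314 genes were higher, of which 88 (28.0%) followed and 10 were shared with the uterus. At that limit 145 were lower, of which 3 (2.07%) followed and 3 were shared. Without genes that differ between epididymis and WT vas deferens, 435 were higher (76 or 17.5% followed, 43 shared). In that setting 403 were lower (19 or 4.71% followed, 18 shared). The main shares that followed were 35.4% and 11.7%, so both were smaller here and at 2 log2 units. Shares of all genes under these settings are not given here. Lower genes that followed numbered 142 (20.3%) with the mean of WT and Hoxd-null as the reference and 127 (18.1%) with the Hoxa-null library alone. With that mean as the reference 558 higher genes (46.0%) followed. Among RefSeq protein-coding genes, an alternative chosen after seeing the data, 370 were lower. Leaving out pseudogenes, also chosen later, kept all 6 counts within 1.5 times. No paired analysis was possible because each group has 1 library. Depth limits low genes, and total counts are unknown.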
